A study of Rattus norvegicus with 12 samples.

Results

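The intronic circles of Apoo were 102 of the 228353 extrachromosomal circular DNAs (eccDNA) that Circle-seq listed in rat back skin. They were chosen as the listed circles annotated to an exon or an intron whose gene symbols include Apoo (ENSRNOG00000046918). Apoo was picked for its numbers of circles and for their recurrence in these same libraries. Those numbers, that recurrence and the differences in numbers between groups are therefore given as a description without a test. All 102 lay in introns, none was annotated to an exon or to another gene as well, and none of the larger circles listed apart as ecDNA named the gene. On the rat build rn6 they ran from position 63524652 to 63615963 of chromosome X.

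In Circle-seq, linear DNA is destroyed with exonuclease before what is left is sequenced. The 12 libraries came from wild-type Sprague Dawley (SD) rats and fell into 3 groups of 4: untreated skin (control), and skin irradiated with an electron beam at 5 Gy a week, either in 2 fractions (5 Gy x2) or in 4 (5 Gy x4). Irradiated skin was taken 7 days after the last of these fractions, so the higher dose was also sampled later and dose and time cannot be told apart. The labels give neither the age or sex of the rats, nor the time at which control skin was taken, nor whether each library stands for its own animal. The p-values therefore measure the spread between libraries, which may be technical.

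Apoo encodes MIC26, also called apolipoprotein O, a subunit of the MICOS complex, which shapes the cristae of the mitochondrial inner membrane. Extrachromosomal circles are pieces of chromosomal DNA whose ends have been joined, and most of those found in normal tissue are short and hold no whole gene. A circle is read from split reads, which cross the joined ends, and from discordant read pairs, whose mates point away from each other on the linear genome. Neither kind of read measures the expression of the gene in which a circle lies, and Apoo RNA was not measured in these libraries.

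Apoo circles numbered 5 to 21 in a library and overlapped between groups, while all circles numbered 3601 to 46163. Control libraries 1 to 4 held 5, 20, 21 and 19 Apoo circles with at least 1 supporting read. The 5 Gy x2 libraries held 6, 12, 15 and 17, and the 5 Gy x4 libraries 17, 12, 15 and 14. The groups overlapped, with means of 16.25 ± 7.54, 12.5 ± 4.796 and 14.5 ± 2.08 (SD, n = 4 each). In the same order, the control libraries listed 4795, 9445, 10389 and 3601 eccDNA of all kinds, the 5 Gy x2 libraries 19006, 28757, 27443 and 6326, and the 5 Gy x4 libraries 22094, 44712, 46163 and 20124. The libraries with most eccDNA, 5 Gy x4 2 and 3, were therefore not those with most Apoo circles.

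Set against all eccDNA, the share of Apoo was highest in control and lowest in 5 Gy x4 by its mean. Control libraries held 1.04, 2.12, 2.02 and 5.28 Apoo circles per 1000 eccDNA, 5 Gy x2 libraries 0.316, 0.417, 0.547 and 2.69, and 5 Gy x4 libraries 0.769, 0.268, 0.325 and 0.696. Each 5 Gy x4 library lay below each control library, and 1 of the 5 Gy x2 libraries, replicate 4, lay among the controls. The log2 ratio of means was -1.40 for 5 Gy x2 over control, -2.34 for 5 Gy x4 over control and -0.95 for 5 Gy x4 over 5 Gy x2, and the last of these was 0.27 without 5 Gy x2 replicate 4. Without that library 5 Gy x2 over control was -2.62, and without control replicate 4 it was -0.80 and 5 Gy x4 over control -1.75. Among the 433 genes with at least 30 occurrences, an occurrence being a listed circle found in a library, 6.93% lay wholly lower in 5 Gy x4 than in control. That share was 3.93% for 5 Gy x2 below control and 2.08% for 5 Gy x4 below 5 Gy x2, and Apoo was among neither. As Apoo was chosen on its numbers of circles in these same libraries, nothing is read from these shares.

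**Figure D1:**
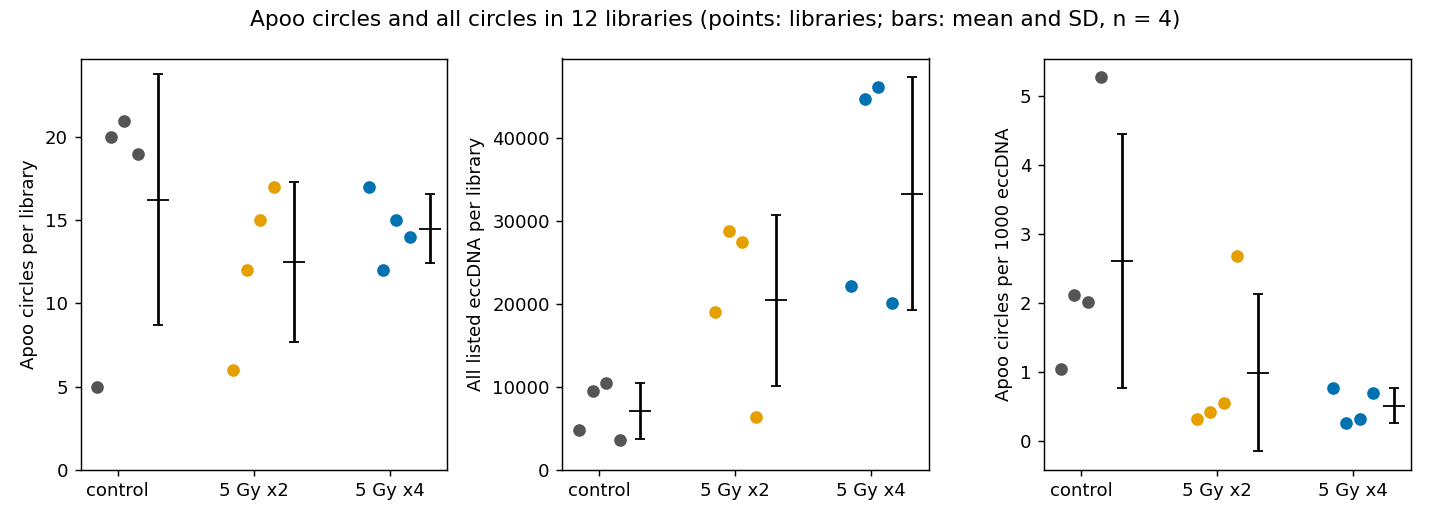
Apoo circles, all listed eccDNA and Apoo circles per 1000 eccDNA in each library (points) with the mean and SD of each group (bars, n = 4, the bar of 5 Gy x2 reaching below 0 in the last panel). Apoo circles lie between 5 and 21 per library in all groups, while all eccDNA lie between 3601 and 46163.

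As a share of the library, by group means, supporting reads set the groups less far apart than circles did. Supporting reads on Apoo came to 97, 520, 630 and 514 in control, 152, 238, 640 and 246 in 5 Gy x2, and 530, 201, 271 and 554 in 5 Gy x4. Per 100000 supporting reads on eccDNA these were 281, 445, 327 and 498 in control, 38.2, 246, 229 and 480 in 5 Gy x2, and 288, 62.2, 150 and 174 in 5 Gy x4. These sums run over listed circles: the table lists 5 calls under 2 circles each, and where a library has several calls in 1 listed circle its count holds 1 of them. Over single calls, each taken once, the reads came to 97, 654, 724 and 514 in control, 214, 238, 476 and 329 in 5 Gy x2, and 634, 267, 289 and 750 in 5 Gy x4. Only in 5 Gy x2 replicate 3 did the listed sum exceed that over single calls, with 640 against 476. In each other library the listed sum was equal or lower. Per 100000 reads as listed, 5 Gy x4 replicate 1 lay above control replicate 1, so the groups overlapped, and the log2 ratio of means of 5 Gy x4 over control was -1.20. The remaining circles of chromosome X took 2.85 ± 0.0541% of eccDNA in control, against 2.66 ± 0.169% in 5 Gy x2 and 2.67 ± 0.150% in 5 Gy x4 (SD, n = 4 each). The reads were amplified and carry no molecular identifiers, and the total depth of the libraries is unknown.

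More of the Apoo circles than of other eccDNA were found in several libraries. As Apoo was picked for recurrent circles, this direction was set by the choice and is a description. The 102 made 173 occurrences: 75 circles were found in 1 library, 10 in 2, 7 in 3, 5 in 4, 2 in 5, and 1 each in 7, 8 and 12 libraries. Those found in more than 1 library made 26.5% of Apoo circles and 3.90% of all other eccDNA. Length differed too: among circles of at least 1000 bp the share was 54.3% for Apoo (19 of 35) and 23.7% for the others, and of the 67 shorter Apoo circles 8 were shared. The deposited table grades circles as hconf, conf or lconf without defining these labels. It gave conf to 90.2% of Apoo circles and to 14.1% of other eccDNA.

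The circles that libraries shared did not have the same ends. A listed circle is the outer span of one or more single calls, each with its own start and end in its own library, and the table lists 195 different single calls for Apoo. Between libraries, 4487 pairs of these calls overlapped, and in 0 of them did both ends lie within 10 bp of each other. In 26 pairs 1 end did. Allowing 50 bp gave 5 pairs with both ends shared, 100 bp gave 15 and 200 bp gave 35. Calls with split reads, which place the ends to the base, gave the same picture, with 0 of 1434 pairs sharing both ends within 10 bp and 7 sharing 1.

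Of the 27 Apoo circles listed in more than 1 library, 0 had all their calls within 10 bp at both ends. Among other eccDNA in more than 1 library 1195 of 8904 (13.4%) did, and 3.95% of the 607 of at least 1000 bp. "Found in 12 libraries" thus says that each library had a call within the span, and recurrence of Apoo was recurrence of a stretch of DNA. Listed circles rarely shared an edge either: 4 pairs of Apoo circles had starts within 10 bp, near positions 63560695, 63564665, 63566293 and 63584705, and no pair shared an end.

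Calls that overlap one another over all libraries formed a main block on chromosome X from 63559910 to 63591986, 32077 bp long, which held 91 of the 102 listed circles and 180 of the 195 calls. A gap of 6146 bp separated it from a small block from 63598133 to 63602560 (4428 bp) with 7 listed circles and 11 calls of 8 libraries. The other 4 listed circles were lone calls of 346 to 369 bp, at 63524652 to 63524997, 63526291 to 63526636, 63557380 to 63557748 and 63615608 to 63615963. Which intron of Apoo the blocks lie in was not analysed here, since no rn6 gene model was used.

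**Figure D2:**
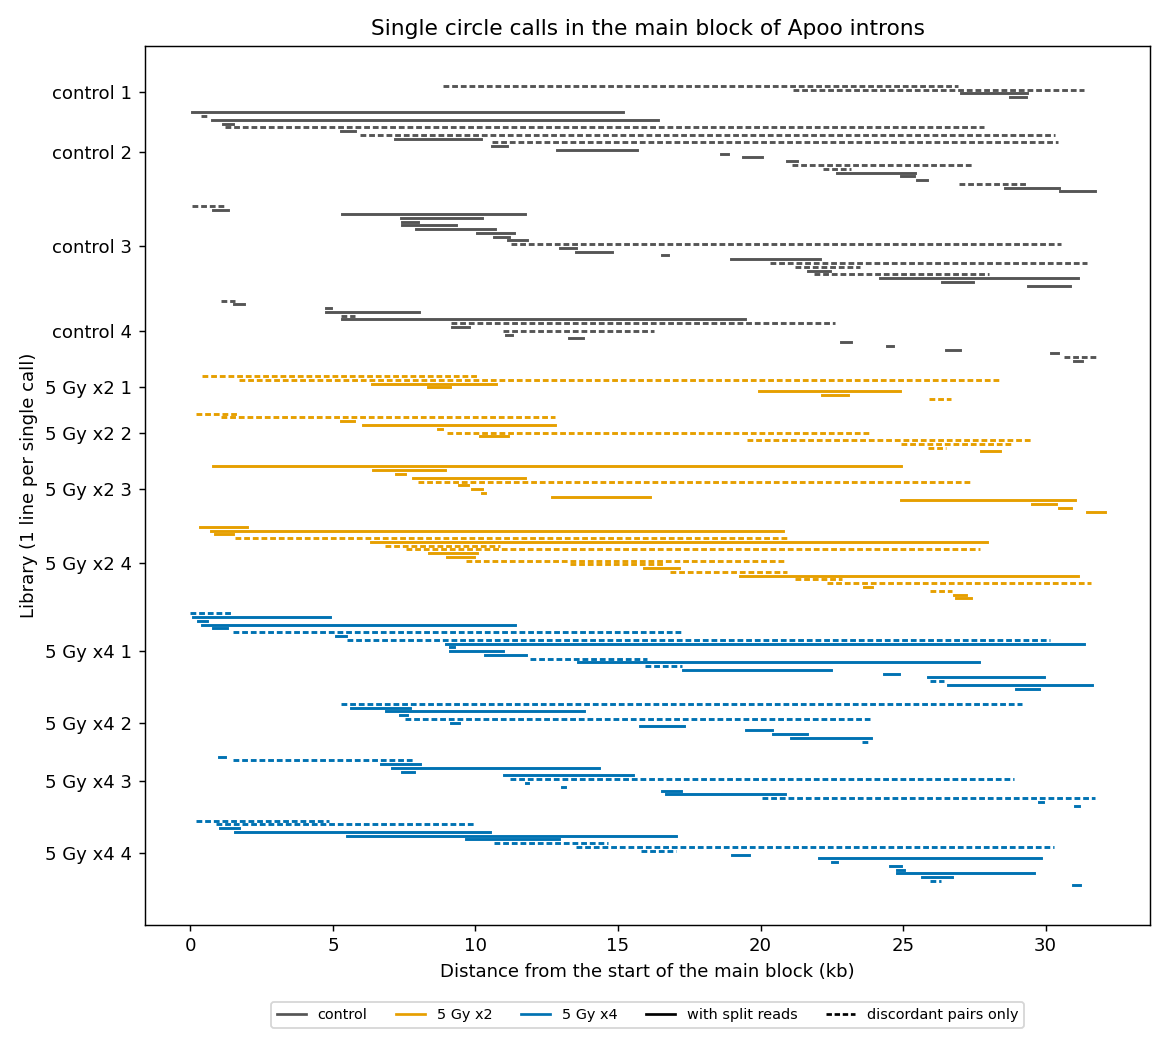
The 180 single Apoo calls of the main block as horizontal lines along their distance from the start of the block (kb), 1 line per call, grouped by library and coloured by group, with dashed lines for calls that rest on discordant pairs alone. The calls of each library lie along the same 32077 bp, cover 66.0% to 98.7% of it and differ in their ends, and many of the longest lines are dashed.

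Every library had calls in the main block. Control libraries had 4, 22, 22 and 17, 5 Gy x2 libraries 7, 11, 13 and 20, and 5 Gy x4 libraries 21, 11, 14 and 18. Together the calls of 1 library covered most of the block, from 66.0% of its bases in control replicate 4 to 98.7% in control replicate 2. The 5 Gy x2 libraries covered 87.3% to 97.5%. The 5 Gy x4 libraries covered 98.6%, 74.5%, 95.0% and 94.6%. The small block was thinner, with 1, 2, 2 and 2 calls in control, 0, 0, 1 and 1 in 5 Gy x2 and 1, 0, 1 and 0 in 5 Gy x4.

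Calls were nested many deep. The widest listed circle, from 63559958 to 63591252 (31295 bp), spanned nearly the whole block and contained 85 other listed circles. An Apoo circle lay inside a median of 4 other listed circles and at most 8, and 14 lay inside none. At position 63569075, 43 calls overlapped over all libraries. Within 1 library the deepest stack was 3, 6, 6 and 4 calls in control, 4, 4, 5 and 8 in 5 Gy x2 and 6, 5, 4 and 5 in 5 Gy x4. Overlapping Apoo calls were thus listed apart within each single library too.

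Coverage by calls varied along the block, and so did the placing of ends. In steps of 1000 bp, up to 50 calls touched a step, that from 63569910 to 63570909, and 16 touched each of the steps from 63561910 to 63563909. Between 63561887 and 63564665, a stretch of 2778 bp, no call started or ended, although calls spanned it. The next longest stretches free of ends were 1275 bp from 63577232 to 63578507 and 750 bp from 63571837 to 63572587. What sequence these stretches hold was not analysed here.

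The widest circle, present in all 12 libraries, shows how a listed circle is put together. It combined 32 calls of 6372 to 26718 bp, and a pair of its calls shared a median of 56.9% of the longer span, with 29 pairs not overlapping at all. Control libraries had 1, 5, 1 and 2 of these calls with 18, 147, 40 and 128 supporting reads. The 5 Gy x2 libraries had 2, 2, 2 and 4 calls with 82, 45, 159 and 72 reads, and the 5 Gy x4 libraries 5, 2, 2 and 4 calls with 110, 78, 54 and 319 reads. The groups overlapped. Where a library had several calls in 1 listed circle, its deposited count held the reads of only 1 of them: for this circle the library tables held 18, 13, 40 and 100 reads in control, 20, 30, 77 and 9 in 5 Gy x2 and 15, 12, 36 and 159 in 5 Gy x4. This touched 6 of the 102 Apoo circles. The calls listed under 2 circles add reads in the other direction, and over all 102 the library tables held 4593 reads against 5186 over the single calls. In 4 of those 5 calls the widest circle was 1 of the pair.

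The other well supported Apoo circles were smaller and had more gaps between libraries. The circle from 63579206 to 63591651 (12446 bp) was found in 8 libraries, with 32, 16, 42 and 0 reads in the control tables, 0, 9, 169 and 7 in 5 Gy x2 and 0, 0, 98 and 82 in 5 Gy x4. The circle from 63570558 to 63576570 (6013 bp) was found in 7, with 0, 10, 0 and 34 reads in control, 0, 0, 12 and 10 in 5 Gy x2 and 6, 0, 40 and 72 in 5 Gy x4. Both were present and absent in each group. The circle from 63584705 to 63591545 (6841 bp) had no reads in control, 0, 18, 169 and 0 in 5 Gy x2 and 59, 0, 0 and 16 in 5 Gy x4. The 169 reads of 5 Gy x2 replicate 3 in this circle and in that from 63579206 are those of 1 call, from 63584850 to 63590958, listed under both. The circle from 63566293 to 63571643 (5351 bp) had 0, 129, 90 and 0 reads in control, 17, 0, 7 and 4 in 5 Gy x2 and none in 5 Gy x4. These circles lacked reads in 1 group each, yet that group had other calls over the same bases: 6 to 13 control calls touched each step of 1000 bp from 63584910 to 63591909, and 11 to 16 calls of 5 Gy x4 each step from 63565910 to 63571909. The shortest Apoo circle, 74 bp from 63571685 to 63571758, was found in 5 Gy x4 replicate 3 with 7 reads.

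Apoo circles were long for this tissue. Single calls ran from 74 to 26718 bp with a median of 1442 bp, against 360 bp for all other calls. Calls of at least 1000 bp made 56.4% of the Apoo calls (110 of 195) and 1.64% of the others, and calls of at least 10000 bp made 17.4% (34) and 0.227%. The class of 330 to under 420 bp, into which 64.1% of other calls fell, held 15 Apoo calls (7.69%). Calls of 420 to under 1000 bp made 23.1% of Apoo calls and 7.88% of the others. All 4 lone calls outside the blocks fell into the common class.

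**Figure D3:**
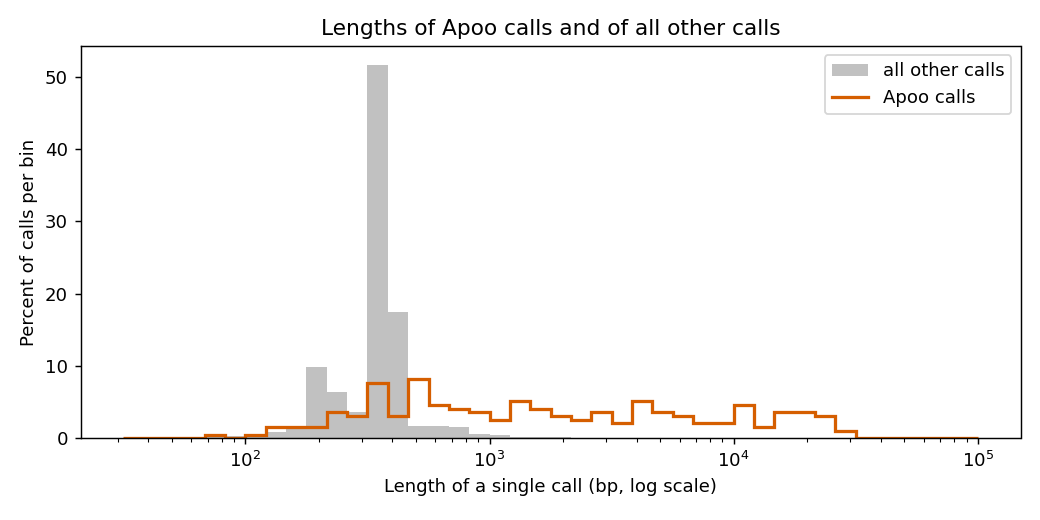
Lengths of the single Apoo calls (line) and of all other calls (grey bars), as percent of calls per length bin on a log length axis in bp. Other calls pile up near 360 bp, and Apoo calls spread up to 26718 bp. The bin from 316 to 383 bp holds 7.69% of Apoo calls and 51.7% of the others.

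The kind of read behind the calls differed with length. Of the 195 Apoo calls 93 had split reads alone, 42 had split reads and discordant pairs, and 60 (30.8%) had discordant pairs alone, against 3.54% without split reads among other calls. The main block had 31.1% such calls, and over the 49 clusters of at least 20 overlapping calls formed over the whole list the median was 28%. Among calls of at least 1000 bp, 45.5% of Apoo calls (50 of 110) and 28.3% of the others had no split read, and 10 of the 85 shorter Apoo calls had none. The Apoo calls without split reads had a median length of 4968.5 bp (quartiles 1464 and 15033 bp), and those with split reads 812 bp (366.5 and 2927.5 bp). Without split reads, no read crosses the joined ends, so the ends of these calls are placed less exactly.

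Read depth was lower over the other Apoo calls than over those of the main block. The mean depth of an Apoo call there had a median of 67.1 reads per base and a range of 19.0 to 304, and 4.19% of all other calls reached that median. In the small block the median was 11.6 (5.43 to 27.7), and the 4 lone calls had depths of 0.532 to 3.05. The median over all other calls was 5.02, and 14.3 over other calls of at least 1000 bp. Short and long calls of the block draw on the same bases, so the depth of 1 call includes reads of the calls that overlap it.

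By library, the median depth of main block calls was 110, 49.9, 71.9 and 56.7 in control, 72.3, 88.9, 66.9 and 30.9 in 5 Gy x2 and 65.0, 98.6, 114 and 71.4 in 5 Gy x4. All other calls of the same libraries had medians of 4.71, 12.5, 15.7 and 48.0, then 12.04, 2.92, 6.31 and 4.55, then 5.13, 4.26, 2.98 and 9.45. Apoo lay above the others in each library, by the least in control replicate 4. Against other calls of at least 1000 bp this did not hold throughout: the ratio of medians was 7.68, 0.905, 0.577 and 0.676 in control, 0.559, 37.3, 2.24 and 0.570 in 5 Gy x2, and 4.26, 32.8, 44.5 and 1.22 in 5 Gy x4. It was below 1 in 3 control and 2 of the 5 Gy x2 libraries.

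**Figure D4:**
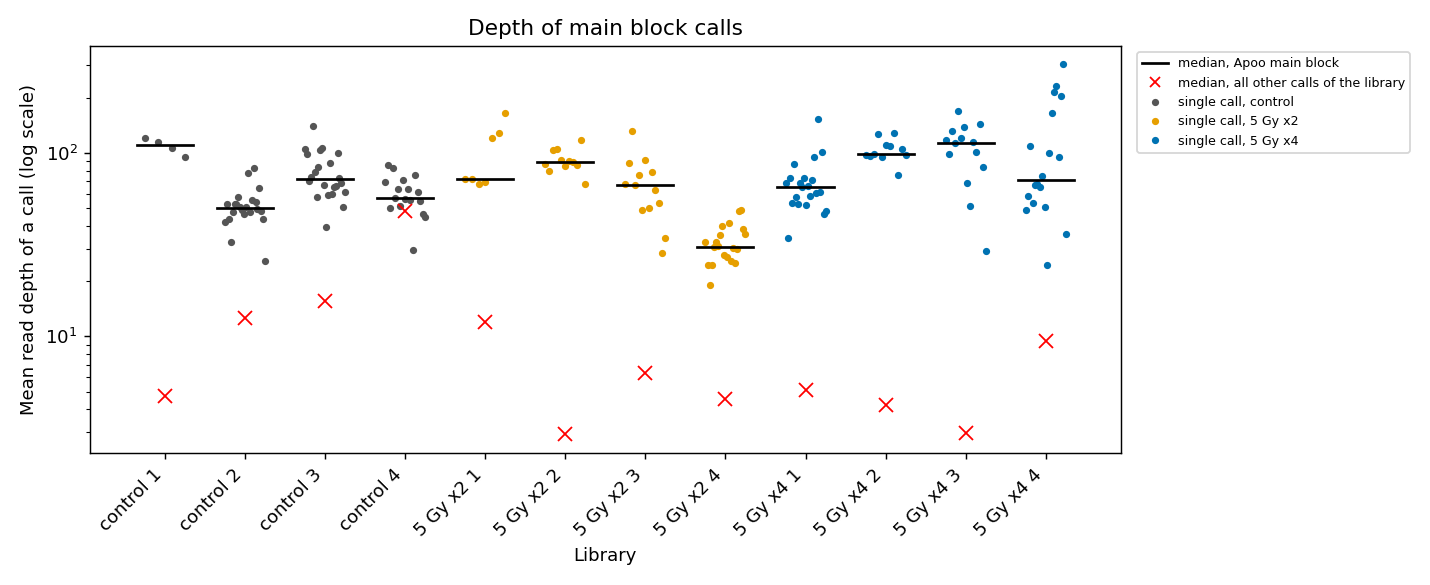
Mean read depth of each main block call of Apoo (points, log axis) by library, with the library's Apoo median (line) and the median of all its other calls (cross). The line lies above the cross in each library, and the Apoo medians of the 3 groups overlap.

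Group means of this depth were 72.2 ± 27.0 in control, against 64.7 ± 24.5 in 5 Gy x2 and 87.2 ± 23.0 in 5 Gy x4 (SD, n = 4 each). A two-sided exact permutation test, chosen after the data were seen, gave p = 0.686 for 5 Gy x2 minus control (-7.43), p = 0.4 for 5 Gy x4 minus control (15.1) and p = 0.257 for 5 Gy x4 minus 5 Gy x2 (22.5), with adjusted p of 0.686, 0.6 and 0.6 over these 3 tests. The depth over the mitochondrial circle of the libraries, 49325, 18513, 23140 and 7160 in control, 85302, 148831, 78296 and 44065 in 5 Gy x2 and 129716, 134149, 88989 and 107049 in 5 Gy x4, moved with the groups. Per 1000 of that depth, Apoo main block depth was 3.99 ± 2.64 in control, against 0.750 ± 0.124 in 5 Gy x2 and 0.796 ± 0.337 in 5 Gy x4 (SD, n = 4 each). On that scale both irradiated groups lay below control, so the direction for 5 Gy x4 turns with the scale. A two-sided exact permutation test gave p = 0.0286 and an adjusted p of 0.0429 for each, adjusted over the 3 tests on this scale. The scale was chosen after the data were seen. Like circles per 1000 eccDNA, which rest on the numbers on which Apoo was chosen, it sets Apoo against the rest of the library. Nothing is therefore read from these p-values. The part of the mitochondrial depth in the lower values was not tested.

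The lengths and reads of Apoo circles were compared between groups, as neither was used to choose the gene. With 4 libraries against 4 the smallest p that a two-sided exact permutation test can give is 0.0286, and p was adjusted over the 9 tests of 3 measures. None of the 9 differences passed an adjusted p of 0.05. A listed length is an outer span that can join calls of several libraries and groups. The widest circle thus counts as 31295 bp in each library, though its calls ran from 6372 to 26718 bp. Library values of listed length therefore depend in part on one another, which limits their p-values. The median length of the listed Apoo circles of a library was 2385, 936.5, 1271 and 507 bp in control, 3006.5, 1843.5, 2349 and 1978 bp in 5 Gy x2 and 1709, 1064, 662 and 1308 bp in 5 Gy x4. The 5 Gy x2 libraries all lay above the 5 Gy x4 libraries, and control overlapped both. Group means were 1275 ± 803, 2294 ± 521 and 1186 ± 439 bp (SD, n = 4 each). The difference of 5 Gy x4 minus 5 Gy x2 was -1108.5 bp (exact permutation p = 0.0286, adjusted p = 0.257), that of 5 Gy x2 minus control 1019 bp (p = 0.114, adjusted p = 0.257) and that of 5 Gy x4 minus control -89.1 bp (p = 0.886, adjusted p = 0.943). By single calls in place of listed spans, 5 Gy x2 (1221 to 4331 bp) and 5 Gy x4 (1018 to 2240.5 bp) overlapped and their difference was -688 bp (exact permutation p = 0.486, adjusted p = 0.743), while that of 5 Gy x4 minus control turned to 218 bp.

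Supporting reads per Apoo circle overlapped between groups. The library medians were 18, 16, 21 and 22 reads in control, 18.5, 12.5, 14 and 9 in 5 Gy x2 and 15, 14, 9 and 18.5 in 5 Gy x4. Most control libraries lay above most irradiated ones, with overlap. Means were 19.25 ± 2.75, 13.5 ± 3.94 and 14.125 ± 3.92 (SD, n = 4 each), and the differences from control of -5.75 and -5.125 each had an exact permutation p of 0.0857 and an adjusted p of 0.257. Among circles found in 1 library only, these differences turned to 3.75 and 2.75. The 5 Gy x4 minus 5 Gy x2 difference was 0.625 reads (exact permutation p = 0.857, adjusted p = 0.943).

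The share of Apoo circles of 330 to under 420 bp, the common length class, was 0, 10, 4.76 and 10.5% in control, 0, 8.33, 13.3 and 5.88% in 5 Gy x2 and 5.88, 25, 6.67 and 7.14% in 5 Gy x4. It rested on few occurrences, 5, 4 and 6 in the 3 groups, and the groups overlapped. Means were 6.32 ± 4.95%, 6.89 ± 5.54% and 11.2 ± 9.23% (SD, n = 4 each), and the exact permutation p was 0.943, 0.514 and 0.6 for the 3 pairs of groups in turn (adjusted p = 0.943, 0.9 and 0.9). The shares above class listed spans, which can join calls of several libraries. By single calls the means were 6.80 ± 5.76%, 5.65 ± 6.97% and 9.32 ± 4.91% (SD, n = 4 each). The share by single calls was 0 in 5 Gy x2 replicate 4 and 15.4% in 5 Gy x4 replicate 2.

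Clusters of overlapping calls were built over the whole list to see how common such a block is. Of 216275 clusters, 200675 held 1 call and 49 held at least 20, of which 12 were on chromosome X. The main block of Apoo held the most calls, 180, ahead of 124 in a cluster on chromosome 1 (148620548 to 148664208) and 111 on chromosome 17 (89385302 to 89526752), both between genes. Among the 49 it was 13th by span and 34th by median depth. Other clusters lacked shared ends too: 18 of the other 48 had no pair of calls from different libraries with both ends within 10 bp, and the median of all 49 had such ends in 0.476% of pairs, up to 45.1%.

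**Figure D5:**
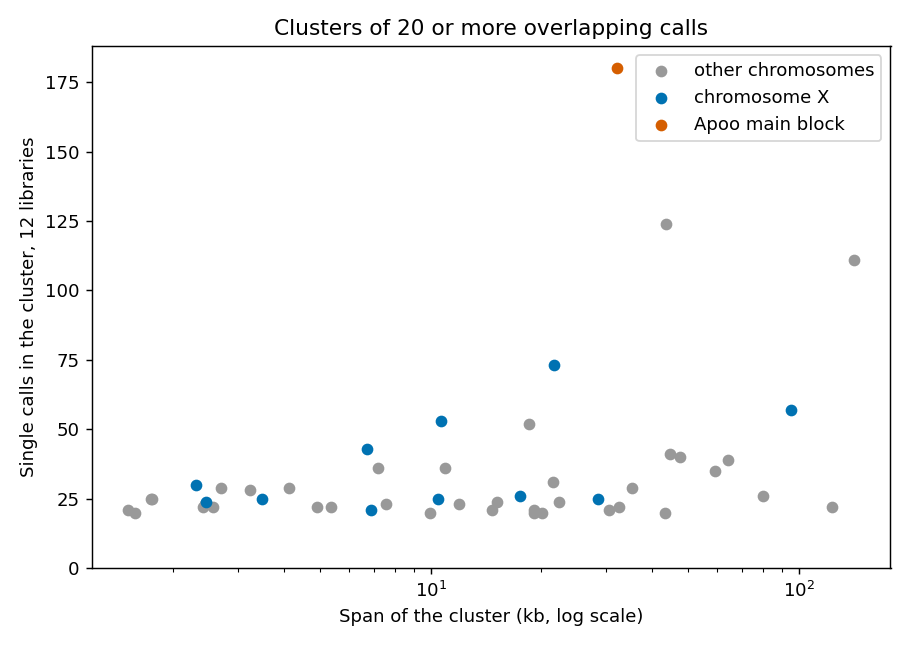
The 49 clusters with at least 20 overlapping calls, by the span of the cluster (kb, log axis) and the number of single calls over all 12 libraries, with chromosome X and the main block of Apoo coloured apart. The main block has the most calls, 180, and lies in the upper part of the range of spans, which runs from 1510 to 141451 bp.

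Among genes with at least 30 occurrences, Apoo was 2nd by occurrences, after Mycbp2 with 529 on 506 listed circles, and 10th by occurrences per listed circle (1.70). Those with most per listed circle were Mipep (2.44), which encodes a mitochondrial peptidase, AABR07034956.1 (2.25), Dkc1 (2.14), which encodes the pseudouridine synthase dyskerin, Slc24a3 (2.00), a sodium, potassium and calcium exchanger, and Glra3 (1.94), a glycine receptor subunit. The genes whose circles per 1000 eccDNA ran most like those of Apoo over the 12 libraries were Ighm (Pearson r = 0.979), Glra3 (0.961), AABR07058884.1 (0.937), Btbd11 (0.932) and AABR07040864.1 (0.932). These correlations are descriptions over points that share their libraries and their denominator, the number of all eccDNA. Apoo stood at 5.28 per 1000 in control replicate 4, which listed the fewest eccDNA (3601), and at 2.69 or less in each other library. That library can weigh heavily on r, and r without it is not given here.

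Of the genes beside Apoo that the table lists with a symbol, each had few circles. On the side of lower coordinates, Klhl15 and Eif2s3, which encodes a subunit of a translation initiation factor, had 1 each, Zfx had 2, Pdk3, a pyruvate dehydrogenase kinase, had 1 and Pcyt1b had 3. On the other side Amer1 had 1, Asb12 and Zc4h2 had 2 each, Zc3h12b had 4 and Msn, which encodes moesin, had 3. Each circle of these 10 genes was found in 1 library, and the nearest, in Klhl15, lay 140098 bp from the Apoo circles. Among them lay 2 genes listed without a symbol: ENSRNOG00000051365, whose 13 genic circles made 27 occurrences and came within 60860 bp of the Apoo circles, and ENSRNOG00000007733, with 8 circles in 1 library each.

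The genes of the partners of the Apoo protein had fewer occurrences than Apoo. Apoo was picked for its numbers of circles and these genes were not, so nothing is read from that gap. Of 12 genes of MICOS, its bridge to the outer membrane and their partners, 9 had a genic circle, with 95 occurrences together and at most 38, in Chchd3, which encodes the MICOS subunit MIC19. Chchd6 (MIC25) had 20, the outer membrane metaxin gene Mtx2 10, the inner membrane fusion GTPase gene Opa1 8, Immt (mitofilin, the core of the complex) 7 and Apool (MIC27), the relative of Apoo, 5. For Micos10 and Samm50 there were 3 each and for Dnajc11 1, while Mtx1, Mtx3 and Micos13 were not listed with a genic circle. In the order control, 5 Gy x2, 5 Gy x4, Chchd3 had 3, 16 and 19 occurrences and Chchd6 3, 6 and 11. Apoo had 65, 50 and 58. These are raw counts, and the mean number of all listed eccDNA per library rose in that order too, from 7057.5 to 20383 and 33273. Whether Chchd3 or Chchd6 changed relative to all eccDNA was not tested. Of the list, only Chchd3 and Immt had more occurrences than listed circles.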

How the data were processed

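Plasmid columns and exonuclease were used to enrich circles, and 50 ng entered each library, per the labels. Build rn6 and the tools BWA, Picard and bedtools come from the submitters' processing notes, which give no versions. Neither the circle caller nor the way calls were merged is given in the sources used here. Counts fill the deposited library tables: whole-number supporting reads per listed circle, not normalized. The authors' annotation table gave positions, genes, labels, and lists of single calls with their split reads, discordant pairs and depths. Starts are counted from 0 there and from 1 here.

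A circle was present at 1 read or more. Supporting reads on eccDNA ran from 34499 to 397674 per library. Python 3.11.15, pandas 2.3.3, numpy 2.4.6 and scipy 1.17.1 were used. Groups were compared by two-sided exact permutation tests of library values with Benjamini-Hochberg adjustment over 9 tests, checked on simulated data. Clusters were runs of calls overlapping by at least 1 bp. Named circles were those in at least 6 libraries, the 5 with most reads, the longest and the shortest. Named genes were the 5 most alike, the 5 with most occurrences per listed circle, 5 neighbours on each side and a list of 12 MICOS, bridging and partner genes. Mycbp2 and the clusters named were chosen after their values were seen. Members and lists were chosen with earlier results of these data known.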

Additional observations from a re-analysis of the deposited data

Results flagged for a closer look

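Several measures were checked in each of the 3 groups, which gave 33 sets of 4 library values. In 4 of the 33 sets, 1 library lay far from the other 3 by the gap between them relative to the set's range. Chance alone gives such a gap in about 1 in 20 sets. These sets share libraries and related measures, so their number cannot be set against that rate. Control replicate 1 had 5 Apoo circles, against 19 to 21 in the other controls. It also listed 4795 eccDNA and 34499 supporting reads. In 5 Gy x2 replicate 4, Apoo made 2.69 circles per 1000 eccDNA, against 0.316 to 0.547 in the rest of its group, on 6326 eccDNA. In 5 Gy x4 replicate 2, 25% of Apoo circles were of 330 to under 420 bp, against 5.88 to 7.14%, and Apoo calls covered 74.5% of the main block, against 94.6 to 98.6%. The 25% classes listed spans, which can join calls of several libraries. By single calls the share in 5 Gy x4 replicate 2 was 15.4%, against 4.55, 6.25 and 11.1% in the rest of its group, a smaller gap. That library had 12 Apoo circles.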

How the results depend on the processing

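None of the 9 differences in length, reads and length class of Apoo circles passed the threshold under any alternative tried, so the alternatives bear on direction and size alone. With only hconf circles, of which Apoo has 5, 5 Gy x4 minus control turned to 7727 bp for length, -8.33 percentage points for the class of 330 to under 420 bp and 21.4 reads, and 5 Gy x2 minus control to -8.33 points for that class. At 5 or more reads that last difference was -0.538 points. By single calls it was -1.14 points, length of 5 Gy x4 minus 5 Gy x2 was -688 bp, and length turned to 218 bp for 5 Gy x4 minus control. With circles of 1 library only, the differences in reads were 3.75, 2.75 and -1 for 5 Gy x2 minus control, 5 Gy x4 minus control and 5 Gy x4 minus 5 Gy x2. Main block depth, 5 Gy x2 minus control, was 0.275 for calls with split reads and 0.923 for calls under 1000 bp. Per 1000 of mitochondrial depth it was -3.24 and 5 Gy x4 minus control -3.19 (exact permutation adjusted p = 0.0429 each). As said above, nothing is read from these p-values. By reads, the log2 ratio of the Apoo share of 5 Gy x4 over control was -1.20, and 40% of hconf Apoo circles were in more than 1 library.

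Leaving out 1 library at a time, length ranged from -345 to 281 bp for 5 Gy x4 minus control, turning without control replicate 1 or 5 Gy x4 replicate 3. The class of 330 to under 420 bp ranged from -1.58 to 2.86 points for 5 Gy x2 minus control (turning without control replicate 1 or 5 Gy x2 replicate 3) and from -0.323 to 6.43 for 5 Gy x4 minus 5 Gy x2 (5 Gy x4 replicate 2). For 5 Gy x4 minus control it ranged from 0.242 to 6.61, the lowest without 5 Gy x4 replicate 2. Reads ranged from -0.875 to 2.33 for 5 Gy x4 minus 5 Gy x2 (5 Gy x2 replicate 4 or 5 Gy x4 replicate 4), and depth from -15.5 to 5.25 for 5 Gy x2 minus control (control replicate 1 or 5 Gy x2 replicate 4). Depth of 5 Gy x4 kept its direction, from 6.17 (without 5 Gy x4 replicate 3) to 27.7 (without control replicate 1) minus control and from 11.2 (without 5 Gy x2 replicate 4) to 30.5 (without 5 Gy x2 replicate 2) minus 5 Gy x2.

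The replicate numbers were not taken to pair the libraries, since same-numbered libraries did not all deviate together: over 286 windows of 10 Mb, they correlated from -0.114 to 0.407 (median 0.0136, 12 pairs), and libraries of different numbers from -0.393 to 0.250 (36 pairs). With the replicate block the smallest p that 4 pairs allow is 0.125, and length of 5 Gy x4 minus 5 Gy x2 had p = 0.125 in an exact permutation test (adjusted p = 0.375).

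The unknown depth limits any count of circles, and counts and shares carry counting error only within these libraries. Merged spans, calls of overlapping DNA and calls without split reads limit what a single Apoo circle is.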

Other observations

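A smaller cluster of the same kind lay 96118 bp before the main block of Apoo, in introns of ENSRNOG00000051365, which the table lists without a symbol. From 63460308 to 63463791 of chromosome X, 25 calls on 11 listed circles came from all 12 libraries, with a median depth of 112. It was looked at after its values were seen. Control libraries had 1, 2, 4 and 2 of its calls, 5 Gy x2 libraries 2, 2, 3 and 1, and 5 Gy x4 libraries 2, 3, 1 and 2, so the groups overlapped. In 2 of 212 overlapping pairs from different libraries both ends lay within 10 bp, where the main block of Apoo had 0 of 4458. Its calls without split reads made 32%, against 31.1% in the main block.

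Glra3, named above for its likeness to Apoo and for its occurrences per listed circle, also had a large cluster, on chromosome 16 from 37738424 to 37783247, with 41 calls at a median depth of 665.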
